A study of Mus musculus with 6 samples.

Results

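The 46 genes described here encode the proteins that build, cap, bundle and anchor cortical actin filaments: actin itself, the Arp2/3 complex and its activators, monomer-binding and capping proteins, coronins, crosslinkers, elongation factors, myosins and membrane linkers. They were taken by symbol from a list of these genes. All 46 were found among the 55291 genes of the deposited table, and all 46 reached the filter of 1 TPM (a transcript level corrected for length, totalling 1000000 in each library) in 3 or more libraries. Poly(A) RNA came from mouse bone marrow-derived macrophages (BMDM), cells grown from marrow progenitors. There were 3 untreated libraries and 3 libraries from BMDM pretreated with apoptotic cells, called AC libraries below. Both groups carry the same cell type label, and the AC pretreatment is the only labelled difference. The origin, dose and time of the apoptotic cells, and the strain, age and genotype of the mice, are not stated in any source consulted. The labels do not say whether replicates came from separate animals or cultures, so a p-value here covers library-to-library spread, which may be technical.

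Actin monomers add to the growing ends of filaments, and macrophages use this growth to push the membrane forward around a particle. Receptors for apoptotic cells signal to WASP and WAVE proteins, which switch on the Arp2/3 complex so that branched filaments form under the membrane. Cofilin and gelsolin take filaments apart, thymosins and profilin hold the monomers, and crosslinkers, myosins and linkers make the resulting cup stiff, contractile and attached to the membrane. Free actin monomer also holds back the coactivator Mrtfa, which with the transcription factor SRF drives many genes of the cytoskeleton through a promoter element called the CArG box.

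That element was looked for on both strands of the 250 bases upstream of the start in the RefSeq promoters of GRCm38.p6, the build named as mm10. Promoters were found for 40 of the 46 genes. Actb, Arpc5l, Cyfip1, Nckap1l, Coro1b and Diaph1 had no entry. A CArG box lay in 4 of the 40 (10%), those of Actg1, Arpc4, Myo1e and Vcl, and in 439 of 27025 promoters in all (1.62%). For comparison, the GAGGAAGT form of the motif of PU.1, a macrophage transcription factor, lay in 1 of the 40 (2.5%), that of Fmnl1, and in 755 of all promoters (2.79%). A match is a description of the letters and does not show binding. The runs around the match are given for 3 of these genes, 5′ to 3′ on the gene's strand, with the CArG box in capitals. No run is given for Arpc4, whose box begins 250 bases upstream and lies at least partly on an annotated exon. The Myo1e run is chr9:70207100-70207349 on the plus strand and its box begins 32 bases upstream of the start. The Actg1 run is chr11:120348543-120348677 on the minus strand, with the box 90 bases upstream of the RefSeq start. It is shorter than the other runs because annotated exons bound it on both sides, and it ends upstream of that start. The Vcl run is chr14:20929148-20929397 on the plus strand, with the box 227 bases upstream.
Myo1e: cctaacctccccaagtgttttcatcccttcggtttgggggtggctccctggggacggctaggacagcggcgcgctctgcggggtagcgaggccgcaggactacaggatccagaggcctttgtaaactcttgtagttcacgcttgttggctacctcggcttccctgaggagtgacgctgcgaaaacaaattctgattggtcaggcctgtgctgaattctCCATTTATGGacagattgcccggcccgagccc
Actg1: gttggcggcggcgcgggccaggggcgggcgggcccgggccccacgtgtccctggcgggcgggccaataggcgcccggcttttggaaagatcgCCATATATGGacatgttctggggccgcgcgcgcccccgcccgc
Vcl: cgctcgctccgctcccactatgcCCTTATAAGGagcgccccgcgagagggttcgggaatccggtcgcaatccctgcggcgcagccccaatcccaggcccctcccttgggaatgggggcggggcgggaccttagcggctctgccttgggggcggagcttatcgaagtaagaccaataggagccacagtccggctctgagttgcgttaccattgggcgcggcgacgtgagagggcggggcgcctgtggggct

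Libraries held 19330350 to 32649089 reads recovered from the deposited values. Macrophage markers were present in every library, with Csf1r at 834 to 1288 TPM and Cd68 at 3731 to 4592 TPM, but Lyz2 was at 83.7 TPM in untreated library 1 and at 9270 to 12451 TPM in the other 5. Of the markers of other cells, all 12 of fibroblasts and smooth muscle were below 1 TPM in every library (summed 0.414 to 3.11 TPM), as were 13 of 15 of T cells (summed 9.89 to 18.1 TPM, of which Cd4 up to 16.8 TPM, with Cd3e at most 0.0359 TPM and Cd3d, Cd8b1 and Themis at 0). Summed platelet markers were at 249.7 to 304 TPM in untreated and 302 to 391 TPM in AC libraries, nearly all of it Pf4, with 3 of 6 below 1 TPM everywhere and Gp1bb at 0. Neutrophil markers summed to 23.9 to 55.7 and 25.6 to 43.7 TPM (3 of 10 below 1 TPM), and B cell markers to 16.5 to 20.8 and 14.6 to 30.4 TPM (4 of 7 below 1 TPM). Erythroid markers summed to 0.0652 to 3.47 and 0.357 to 17.5 TPM. Epithelial markers summed to 0.650 to 1.71 and 2.10 to 5.09 TPM, without overlap, with Epcam and Krt5 at 0. Stress genes summed to 903 to 1136 TPM in untreated and 739 to 945 TPM in AC libraries. Among them Atf3 was at 677 to 858 against 556 to 639 TPM, without overlap, as was the case for 4.42% of all genes tested. Placental transcripts summed to 26.6, 56.8 and 0 TPM in the untreated libraries and to 50.8, 229 and 0.423 TPM in the AC libraries. This left 4 libraries with them (untreated 1 and 2, AC 1 and 2) and 2 without or nearly so (untreated 3, AC 3). The small RNA gene Gm23935 was at 73936 TPM in AC library 3 and at 9648 to 13452 TPM elsewhere. The part of these features in the results below was not tested.

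The genes of the list were abundant in macrophages of both groups, and no member differed between untreated and AC libraries beyond the spread between replicates. On average over the 6 libraries, 8 members lay above 1000 TPM, 30 between 100 and 1000 TPM, 7 between 10 and 100 TPM, and 1, Vcl, below 10 TPM. The order ran from Tmsb4x (10631 TPM) and Actb (4088 TPM) through Arpc2 (1274 TPM), Capg (1251 TPM), Actg1 (1175 TPM), Pfn1 (1120 TPM), Actr3 (1013 TPM) and Cfl1 (1001 TPM) down to Ezr (21.9 TPM), Wasl (10.2 TPM) and Vcl (2.90 TPM). Tmsb4x was above Actb in every library, and Actb above every other member. The 6 genes from Arpc2 to Cfl1 overlapped in their range over libraries and have no firm order. In bulk RNA, fewer cells of a type and less RNA per cell cannot be told apart.

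In the fit by limma over 12603 genes, 0 of the 46 members passed at an adjusted p under 0.05, where the background was 0% of all genes tested. At an unadjusted p under 0.05 there were 0 members and 164 genes (1.3% of those tested), and voom on the recovered reads called 0 of 12383 genes. Groups did not overlap for 0 members, against 4.42% of all genes. The mean of the AC libraries was lower for 38 members and higher for 8. Lower means were thus 82.6% of the members, 70.6% of all genes tested and 79.7% of the 2848 genes that reached 50 TPM in the higher group mean. With median-of-ratios scaling in place of equal totals, 32 members and 52.6% of all genes had the lower AC mean. The median difference in log2(TPM + 1), AC minus untreated, was -0.10 over the members, -0.07 over all genes and -0.09 over the genes of at least 50 TPM. Folds on this scale understate the change of low genes.

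At an unadjusted p under 0.05, leaving out 1 library gave 106 genes (without untreated library 1) to 797 genes (without AC library 1). With these fits, 2 members were below 0.05 without AC library 3 (Myh9 and Wasf2, both lower; 3.91% of all genes), 1 without AC library 1 (Wasl, higher; 6.32% of all genes) and 0 without any other library. Within the 4 libraries with placental transcripts there were 4 (Fmnl1, Myh9, Tln1 and Wasf2, all lower; 4.75% of all genes). None passed after adjustment by limma.

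The groups lay closer or farther apart depending on which libraries were compared. Without AC library 3, 12 members had groups that did not overlap (18.1% of all genes), and without AC library 1, 9 members did (22.8% of all genes). These counts were 5 without untreated library 3 (16.1% of all genes), 3 without AC library 2 (11.7%), 1 without untreated library 2 (8.20%) and 0 without untreated library 1 (6.85%). Within the 4 libraries with placental transcripts, the median difference was -0.15 over members and -0.13 over all genes, and 32 members were lower. Between the other two, 22 members were lower, with medians of 0.02 and 0.05.

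**Figure D1:**
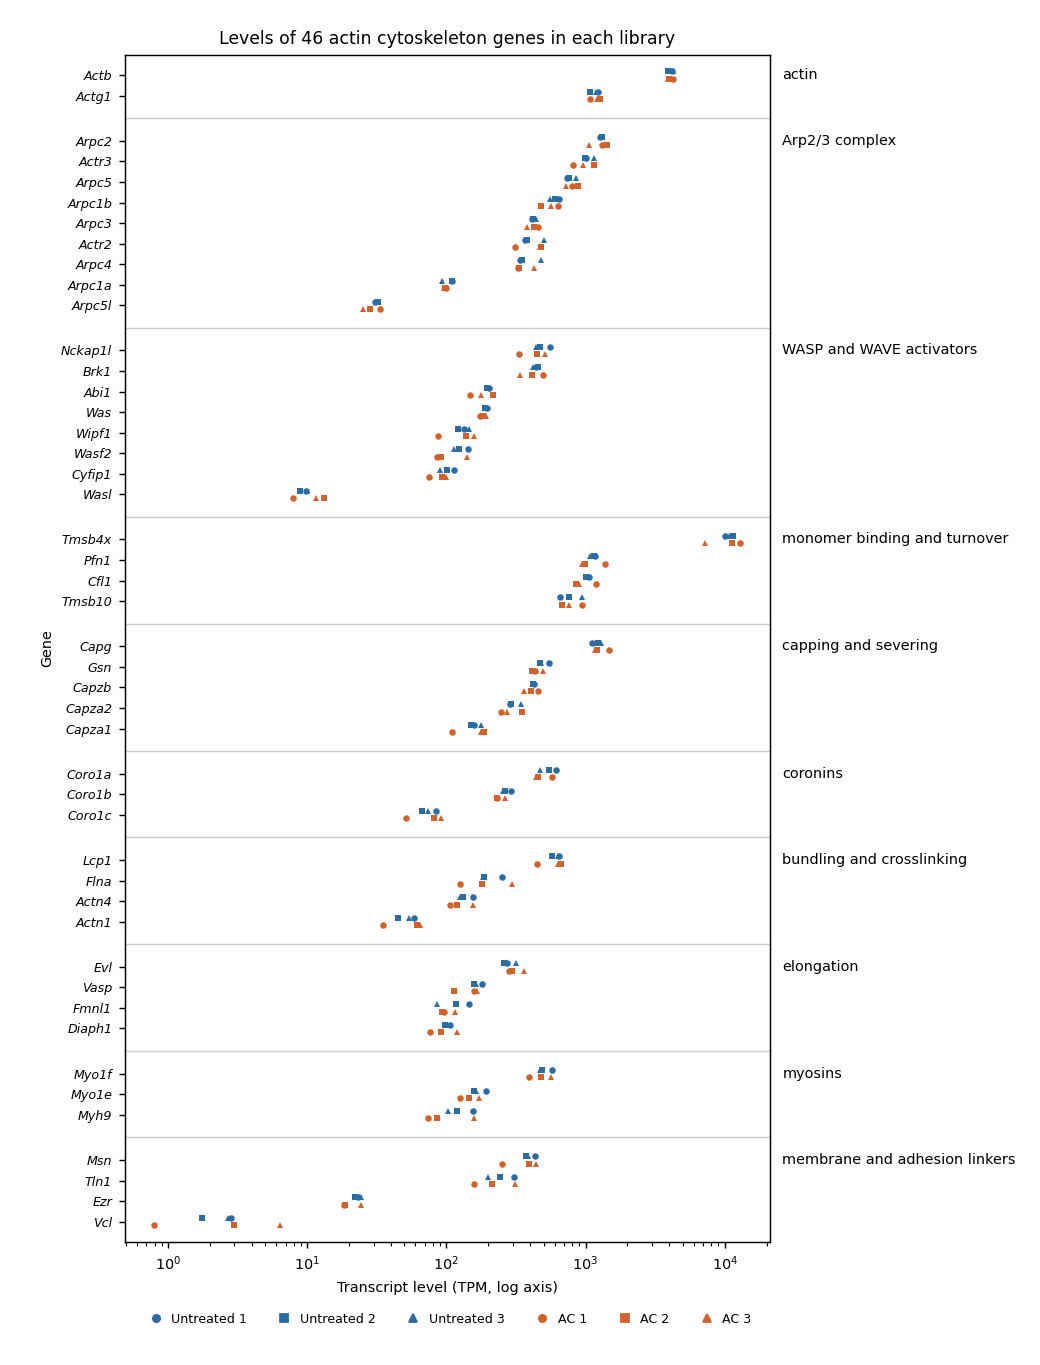
Levels of the 46 genes (TPM, log axis) in the 3 untreated and 3 AC libraries, 1 point per library, grouped by role. Mean levels run from 2.90 TPM for Vcl to 10631 TPM for Tmsb4x, and the untreated and AC points overlap for every gene.

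Actin itself did not differ between the groups beyond the spread between libraries, and both actin genes were slightly higher in AC libraries under median-of-ratios scaling (median 0.07). Actb, the cytoplasmic beta-actin (chr5:142903115-142906754, minus strand), was at 4196, 3907 and 4267 TPM in the untreated libraries and 4260.0, 3958 and 3937 TPM in the AC libraries. All 6 values lie close together, the difference was -0.03 ± 0.14 (SE), and the 95% interval of the fold was 0.787 to 1.23. Actg1, the gamma isoform whose promoter run is printed above, was at 1228, 1080.3 and 1184 TPM without and 1075, 1277 and 1208 TPM with apoptotic cells, with a difference of 0.03 ± 0.14. The lowest Actg1 library was AC 1 and the highest AC 2, so the AC values enclosed the untreated ones. Exact stretches of 150 bases shared with the annotated copies Gm12715, Gm8399 and Gm16385 made up 39.8% of Actg1, so its level is uncertain.

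The Arp2/3 complex, which nucleates filament branches, showed lower AC means for 7 of 9 subunit genes and a median difference of -0.09. Under median-of-ratios scaling 5 of 9 were lower (median -0.02), and none passed the test. Arpc2, the most abundant subunit gene, was at 1272, 1305 and 1293 TPM in the untreated libraries and 1304, 1421 and 1052 TPM in the AC libraries. AC library 3 was its lowest and AC library 2 its highest, with a difference of -0.05 ± 0.15. The actin-related subunit genes Actr2 (313 to 502 TPM) and Actr3 (817 to 1153 TPM) were both lowest in AC library 1. Arpc3 was at 383 to 459 TPM and Arpc4 at 326 to 480.1 TPM.

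Alternative subunits of the complex held similar proportions in all libraries. Arpc1b was at 644, 608 and 559 TPM without and 631, 475 and 563 TPM with apoptotic cells, and Arpc1a at 110.1, 109.5 and 93.2 TPM without and 98.7, 97.5 and 96.2 TPM with apoptotic cells. Arpc1a made up 13.5 to 17.0% of both together. Arpc5 was at 733, 762 and 856 TPM (untreated) and 794, 889.7 and 723 TPM (AC), and its paralog Arpc5l at 30.7, 32.1 and 32.1 TPM (untreated) and 33.5, 28.2 and 25.1 TPM (AC). Arpc5l made up 3.07 to 4.05% of the pair, with the lowest share in AC library 2 and the highest in AC library 1. Exons of Arpc1b overlap Pdap1 on the other strand over 18.2% of their bases, where reads cannot be assigned with the strand setting unknown. Exons of Arpc4 overlap Ttll3 on the same strand over 12.2% of their bases, which strand cannot separate.

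The activators of the complex had lower AC means for 7 of 8 genes, with a median difference of -0.14 (7 of 8 and -0.07 under median-of-ratios scaling). Nckap1l, the WAVE complex subunit of blood cells, led this group at 555, 474 and 442 TPM in the untreated libraries and 332, 445 and 512 TPM in the AC libraries. AC library 1 was lowest and untreated library 1 highest, and the difference was -0.21 ± 0.19. Wasf2, the WAVE2 protein gene, had the smallest p of all members with a lower mean and was at 144, 123 and 114 TPM (untreated) and 85.0, 91.3 and 139.6 TPM (AC). AC libraries 1 and 2 lay under every untreated library, but AC library 3 lay among them. Its difference was -0.30 ± 0.21 (limma, unadjusted p = 0.187, adjusted p = 1.0), and it ran from -0.51 without AC library 3 to -0.16 without AC library 1. Within the 4 libraries with placental transcripts it was -0.59, and between the other two it was 0.29.

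Was, the WASP of blood cells, was at 195, 191 and 196 TPM without and 176, 184 and 193 TPM with apoptotic cells. Wasl, the broadly expressed N-WASP, was at 9.77, 8.83 and 9.96 TPM without and 7.96, 13.3 and 11.6 TPM with apoptotic cells, on 392 to 590 reads. Its AC libraries 2 and 3 lay above every untreated one and AC library 1 below, with a difference of 0.16 ± 0.21 (limma, unadjusted p = 0.474). That value was 0.02 without AC library 2 and 0.35 without AC library 1. Wipf1, which binds and holds WASP, spanned 86.7 to 158 TPM. The WAVE complex subunits Cyfip1 (75.6 to 114 TPM) and Abi1 (147 to 217 TPM) had their lowest level in AC library 1, whereas Brk1 (338 to 493 TPM) had its highest there.

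Among the 4 monomer-binding genes, 3 with a lower AC mean and 2 under median-of-ratios scaling, the AC libraries differed widely from one another, and for Tmsb4x, Pfn1 and Cfl1 they enclosed the untreated values. Tmsb4x, thymosin beta-4, which sequesters actin monomers (chrX:167207093-167209315, minus strand), was at 10099.7, 11455 and 10734 TPM in the untreated libraries and 12951, 11267 and 7276 TPM in the AC libraries. AC library 1 was the highest of the 6 and AC library 3 the lowest, and the difference was -0.08 ± 0.23. It was -0.25 without AC library 1 and 0.17 without AC library 3. Tmsb10, its paralog, was at 658, 761 and 951 TPM without and 946, 678 and 759.9 TPM with apoptotic cells. The profilin gene Pfn1 was at 1173, 1154 and 1075 TPM (untreated) and 1389, 988 and 942 TPM (AC), and the cofilin gene Cfl1 at 1057, 1001 and 1018 TPM (untreated) and 1188, 850.4 and 892 TPM (AC). Both were highest in AC library 1, as Tmsb4x was, and lower in AC libraries 2 and 3 than in any untreated library. Exons of Cfl1 overlap Snx32 on the other strand over 16.5% of their bases.

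Tmsb4x made up 25.8 to 38.2% of the summed TPM of the members, so it set much of that sum. The 46 genes summed to 32148, 32431 and 32810 TPM in the untreated libraries and to 33914, 32195 and 28207 TPM in the AC libraries. Group means were 32463 ± 332 (SD, n = 3) and 31439 ± 2928 TPM (SD, n = 3), which is 3.25% and 3.14% of all TPM. Without Tmsb4x the sums were 22048, 20976 and 22076 TPM against 20963, 20928 and 20930 TPM. At equal totals, those AC values lay closely together and below the untreated ones, AC library 1 only just below untreated library 2. The totals include Gm23935, at 73936 TPM in AC library 3 and 9648 to 13452 TPM elsewhere, which lowers the TPM of other genes there. The closeness and order of these sums thus depend on the totals used. Sums with Gm23935 left out of the totals were not taken. Sums without Tmsb4x were not taken under median-of-ratios scaling. Over all genes tested, the median deviation from the 6-library mean in log2(TPM + 1) was -0.18 in AC library 1 and 0.10 in untreated library 1. Reads on the members were 2.89 to 3.14% of all reads.

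Capping and severing genes had lower AC means for 4 of 5 members, median -0.07 (4 of 5 and -0.0022 under median-of-ratios scaling). Capg, the macrophage capping protein, was at 1113, 1234 and 1303 TPM in the untreated libraries and 1469, 1219 and 1171 TPM in the AC libraries. It was highest in AC library 1, and its AC libraries 2 and 3 lay within the untreated range, with a difference of 0.08 ± 0.15 that turned to -0.02 without AC library 1. Gsn, gelsolin, which severs filaments, was at 549.6, 474 and 478 TPM without and 431, 411 and 493 TPM with apoptotic cells, with a difference of -0.17 ± 0.14 (limma, unadjusted p = 0.251). AC libraries 1 and 2 were below all untreated ones, and AC library 3 lay between them. The difference was -0.25 without AC library 3 and -0.10 without untreated library 1. The capping protein alpha genes were Capza1 at 157, 149.8 and 178 TPM (untreated) and 109.8, 186 and 177 TPM (AC) and Capza2 at 285, 293 and 345 TPM (untreated) and 248, 351 and 273 TPM (AC). Both were lowest in AC library 1 and highest in AC library 2. The beta gene Capzb lay at 362 to 454 TPM. Stretches shared with Gm3608 made up 43.8% of Capza1, so its level is uncertain.

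All 3 coronin genes, whose proteins act with the Arp2/3 complex in filament turnover, had lower AC means (median -0.15), and 2 of 3 under median-of-ratios scaling. Coro1a was at 614, 548 and 473 TPM in the untreated libraries and 578, 456 and 438 TPM in the AC libraries, with untreated library 1 highest and a difference of -0.15 ± 0.16. Coro1b was at 292, 264 and 257 TPM without and 232, 230.1 and 263 TPM with apoptotic cells, with a difference of -0.16 ± 0.13 (limma, unadjusted p = 0.238). AC library 3 lay between the untreated values, so the groups overlapped. Its difference was -0.11 without untreated library 1. Coro1b shares exon sequence with Ptprcap. Coro1c spanned 51.3 to 91.8 TPM, from AC library 1 to AC library 3.

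Bundling and crosslinking genes had lower AC means for 4 of 4 members, median -0.11 (3 of 4 and -0.04 under median-of-ratios scaling). Lcp1, the leukocyte bundling protein L-plastin, was at 647, 573 and 639 TPM in the untreated libraries and 452, 665 and 637 TPM in the AC libraries. AC library 1 was lowest and AC library 2 highest, and the difference was -0.10 ± 0.17. Flna, the filamin A crosslinker, spanned 125 to 298 TPM between AC libraries 1 and 3, which are the lowest and highest of all 6. Its difference of -0.12 ± 0.30 ran from -0.45 without AC library 3 to 0.18 without AC library 1. The alpha-actinin genes were Actn4 at 155, 131 and 126 TPM (untreated) and 107, 120.0 and 156 TPM (AC) and Actn1 at 58.1, 44.6 and 54.2 TPM (untreated) and 35.0, 61.4 and 64.3 TPM (AC). AC library 3 was the highest and AC library 1 the lowest for both.

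Elongation genes, whose proteins speed growth at filament ends, had lower AC means for 3 of 4 members, median -0.15 (3 of 4 under median-of-ratios scaling too). Evl, an Ena/VASP protein, had the smallest p of the members with a higher mean and was at 273, 260.2 and 318 TPM in the untreated libraries and 282, 296 and 359 TPM in the AC libraries. AC library 3 was above all untreated libraries, while AC libraries 1 and 2 lay within their range. Its difference was 0.13 ± 0.15 (limma, unadjusted p = 0.394), and 0.03 without AC library 3. Vasp was at 180.0, 158 and 164 TPM without and 158, 113 and 166 TPM with apoptotic cells, with a difference of -0.21 ± 0.17 (limma, unadjusted p = 0.243). AC library 2 was by far the lowest of the 6, AC library 1 lay just under the untreated range and AC library 3 within it. Without AC library 2 the difference was -0.04. The formin genes were Diaph1 at 75.9 to 119.8 TPM and Fmnl1 at 85.7 to 146 TPM.

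All 3 myosin genes had lower AC means (median -0.22, and -0.15 under median-of-ratios scaling), though none passed the test. Myo1f, a membrane-bound myosin of leukocytes, was at 577, 486 and 468 TPM in the untreated libraries and 395, 479 and 565 TPM in the AC libraries, with a difference of -0.10 ± 0.17. Its paralog Myo1e was at 193, 159 and 162 TPM without and 125, 145 and 171 TPM with apoptotic cells, with a difference of -0.22 ± 0.16 (limma, unadjusted p = 0.198). AC library 1 was lowest and untreated library 1 highest for both, and AC library 3 lay within the untreated range. The Myo1e difference was -0.34 without AC library 3 and -0.11 without AC library 1. Myh9, the heavy chain of non-muscle myosin IIA, had the most negative difference of all members, -0.31 ± 0.29. It was at 155, 119.5 and 103 TPM (untreated) and 73.4, 85.6 and 158 TPM (AC), so AC libraries 1 and 3 were the lowest and the highest. The difference was -0.64 without AC library 3 and -0.10 without AC library 1, and -0.77 within the 4 libraries with placental transcripts against 0.61 between the other two.

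Membrane and adhesion linkers had lower AC means for 3 of 4 members, median -0.17 (3 of 4 and -0.10 under median-of-ratios scaling). Msn, moesin, which ties filaments to membrane proteins, was at 430.2, 376 and 384 TPM in the untreated libraries and 251, 389.9 and 439 TPM in the AC libraries. AC library 1 was far below the other 5, and the difference was -0.18 ± 0.21. Its relative Ezr, ezrin, was at 23.2, 22.2 and 24.6 TPM without and 18.4, 18.6 and 24.3 TPM with apoptotic cells, on 418 to 790 reads. AC libraries 1 and 2 lay under every untreated Ezr value and AC library 3 within them. Tln1, the integrin activator talin, spanned 159 to 313 TPM between AC libraries 1 and 3, with a difference of -0.16 ± 0.26 that turned to 0.07 without AC library 1. Vcl, vinculin, was at 2.82, 1.76 and 2.68 TPM (untreated) and 0.794, 2.97 and 6.37 TPM (AC), on 59 to 363 reads. The AC libraries were both the lowest and the highest, and the difference of 0.15 ± 0.47 was -0.34 without AC library 3 and 0.68 without AC library 1. Counting error alone was 13.0% for Vcl at its lowest count, and 25.5% of its exon bases overlap Ap3m1 on the other strand.

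The precision of these differences was limited by 3 libraries per group. The median SE over the members was 0.17 on the log2 scale. The 95% interval lay inside a 1.5-fold change in either direction for 33 of 46 members (71.7%), against 46.1% of all genes and 72.9% of genes of at least 50 TPM. It lay inside a 2-fold change for 45 members (97.8%), Vcl being the exception, and for 87.4% of all genes. Leaving out 1 library turned the sign of 27 members and moved all 46 differences by over 1.5 times. The lowest difference came from leaving out AC library 3 for 21 members, and the highest from leaving out AC library 1 for 25. A member passed in 0 of the alternatives run.

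**Figure D2:**
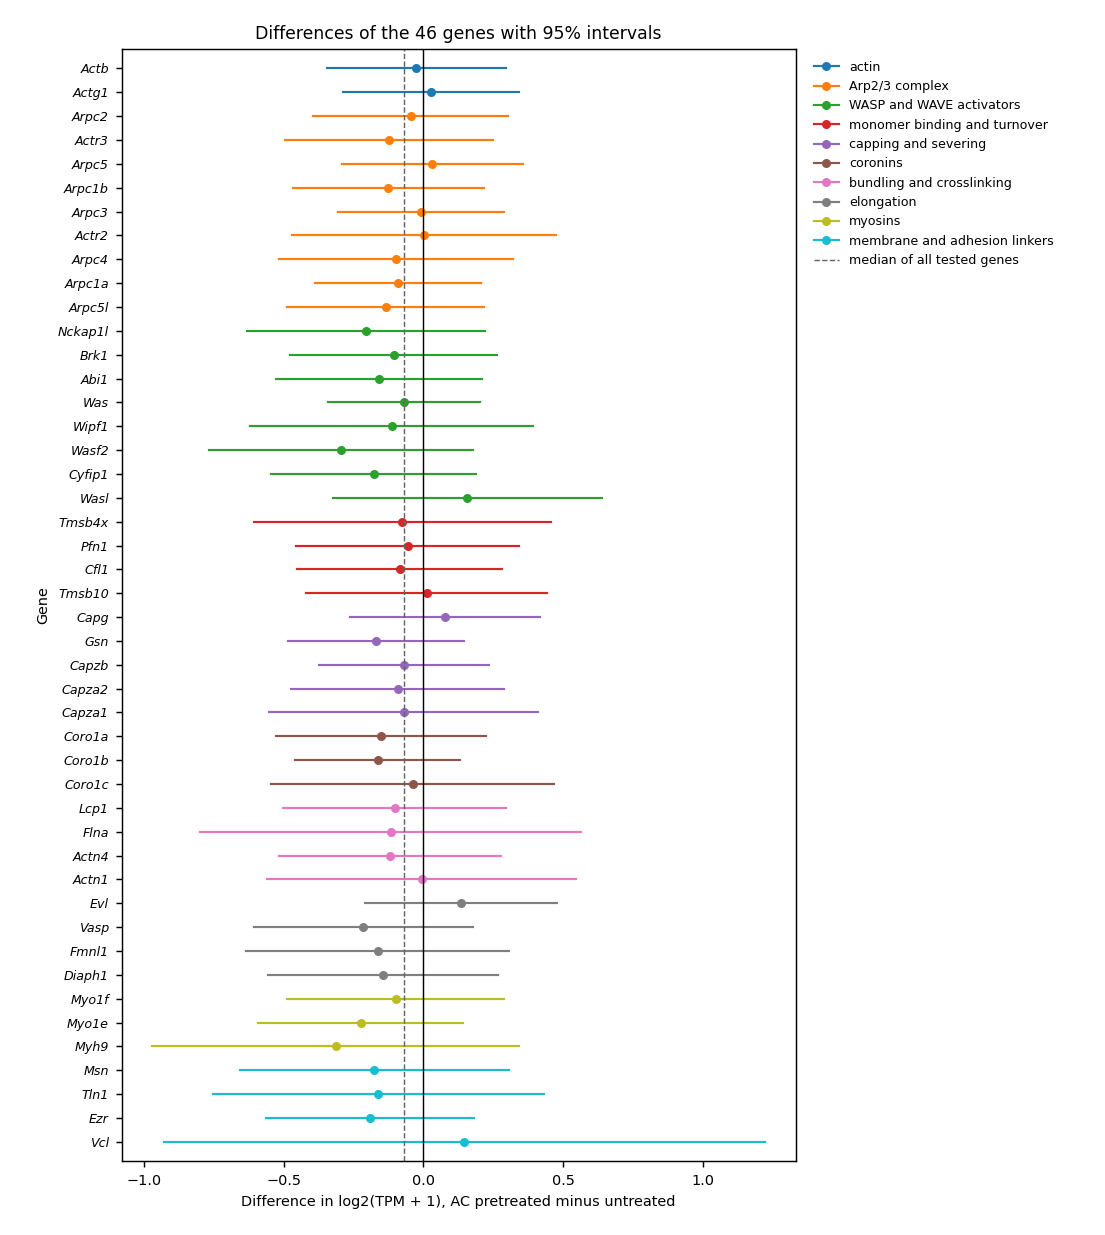
Difference in log2(TPM + 1), AC minus untreated, of each of the 46 genes with its 95% interval from limma, coloured by role, with the median of all genes tested (-0.07) as a dashed line. Differences run from -0.31 for Myh9 to 0.16 for Wasl, and every interval includes 0.

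Balance between paired genes was compared within each library, where the scaling of that library cancels, in 10 pairs. The trend with transcript length described below does not cancel where paired genes differ in length, as Was (2381 bases) and Wasl (6165 bases) do. The exact permutation test (2-sided, smallest possible p = 0.1 for 3 against 3) gave an adjusted p of 0.889 for 9 pairs and 1.0 for Msn to Ezr. A random split of the libraries separates the groups of a pair with a probability of 0.1. Only 1 of the 10 pairs, Myo1f to Myo1e, had groups that did not overlap. Its log2 ratio was 1.58, 1.61 and 1.53 in the untreated libraries and 1.66, 1.72 and 1.72 in the AC libraries, a difference of 0.13 (exact permutation p = 0.1), and 0.10 to 0.15 on leaving out 1 library. The ratio of Vasp to Evl was 0.593 ± 0.0737 (SD, n = 3) in untreated and 0.468 ± 0.0878 (SD, n = 3) in AC libraries, with an exact permutation p of 0.2. Actb stood 3.55 ± 0.113 times above Actg1 in untreated and 3.44 ± 0.459 times in AC libraries (SD, n = 3, exact permutation p = 0.6). Differences in log2 ratio were -0.24 for Was to Wasl, 0.17 for Arpc5 to Arpc5l, -0.09 for Tmsb4x to Tmsb10, -0.11 for Actn4 to Actn1, -0.03 for Arpc1b to Arpc1a, and 0.02 for both Capza1 to Capza2 and Msn to Ezr. On leaving out 1 library, every pair turned sign except Myo1f to Myo1e, Vasp to Evl, Was to Wasl and Arpc5 to Arpc5l.

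**Figure D3:**
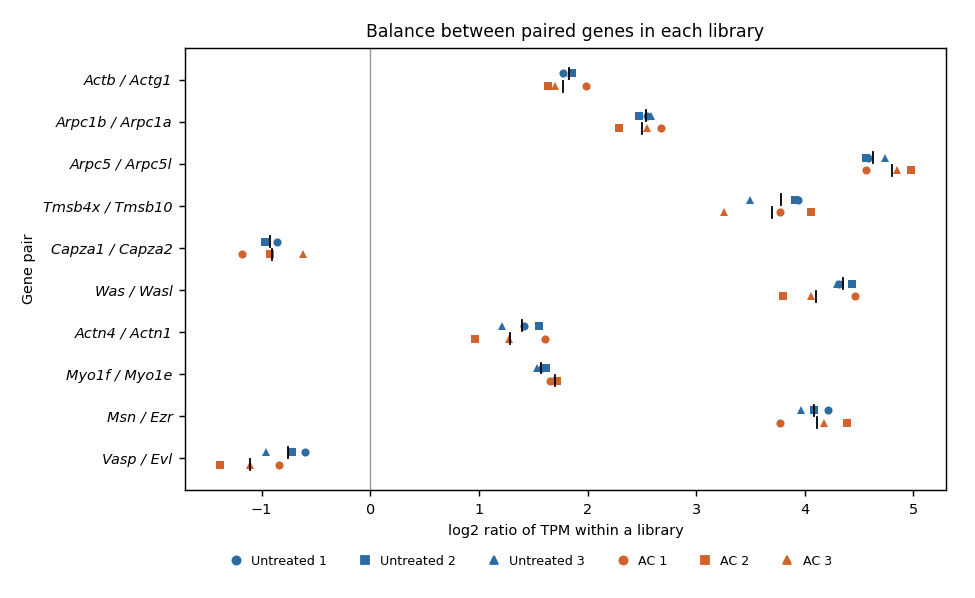
The log2 ratio of TPM of 10 gene pairs in each library, 1 point per library, untreated and AC in different colours, with black ticks at the group means. The AC points lie apart from the untreated ones only for Myo1f to Myo1e (1.66 to 1.72 against 1.53 to 1.61).

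The members differed more between AC libraries than between untreated libraries. The median SD of log2(TPM + 1) was 0.12 over untreated and 0.26 over AC libraries, and the AC value was the larger for 41 of 46 members (89.1%). Over all genes tested the medians were 0.16 and 0.29, with the AC value larger in 73.3%, and over genes of at least 50 TPM they were 0.13 and 0.24 (77.2%). A span of at least 1.5-fold was seen between AC libraries for 15 members and between untreated libraries for 4. AC library 1 was the lowest of the 6 for 26 members, and AC library 3 was the highest for 11 and the lowest for 9. Levels of Flna, Myh9 and Vcl were at least 2-fold higher in AC library 3 than in AC library 1, and no member was 2-fold lower.

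In AC libraries 1 and 3 these deviations followed transcript length. Lengths are merged exon lengths from GENCODE release 21, and the limits of 3000 and 5500 bases were chosen after the values were seen. Over the 46 members, the deviation of a gene from its 6-library mean had a Spearman correlation with length of -0.81 in AC library 1 and 0.71 in AC library 3 (Pearson on log2 length -0.80 and 0.69), and of 0.57 in untreated library 1. In the other 3 libraries it lay between -0.23 and 0.10. Over 12383 genes with a length, Spearman values were -0.47 in AC library 1, 0.38 in AC library 3 and 0.08 in untreated library 1. Genes of 1 library share its preparation and depth, so these are descriptions with no p.

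All 17 members of 5500 bases or more were lowest in AC library 1 and higher in AC library 3 than there. Their median log2 difference, AC library 3 minus AC library 1, was 0.71, against 0.59 over all long genes. Of the 17 members under 3000 bases, 5 were higher in AC library 3, with a median of -0.26, against -0.14 over all short genes. Over all members, 31 were higher and 15 lower in AC library 3 than in AC library 1, and 64.7% of all genes were higher. Long members thus deviated by a median of -0.45 in AC library 1 and 0.28 in AC library 3, and all long genes by -0.39 and 0.20. The cause was not tested. After removal of the trend with length within each library, 2 of 46 members had groups that did not overlap, against 4.80% of all genes. These were Wasl (3.4624 in the lowest AC library against 3.4618 in the highest untreated one) and Myo1e (7.3129 in the highest AC library against 7.3143 in the lowest untreated one), on the log2(TPM + 1) scale after that removal.

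**Figure D4:**
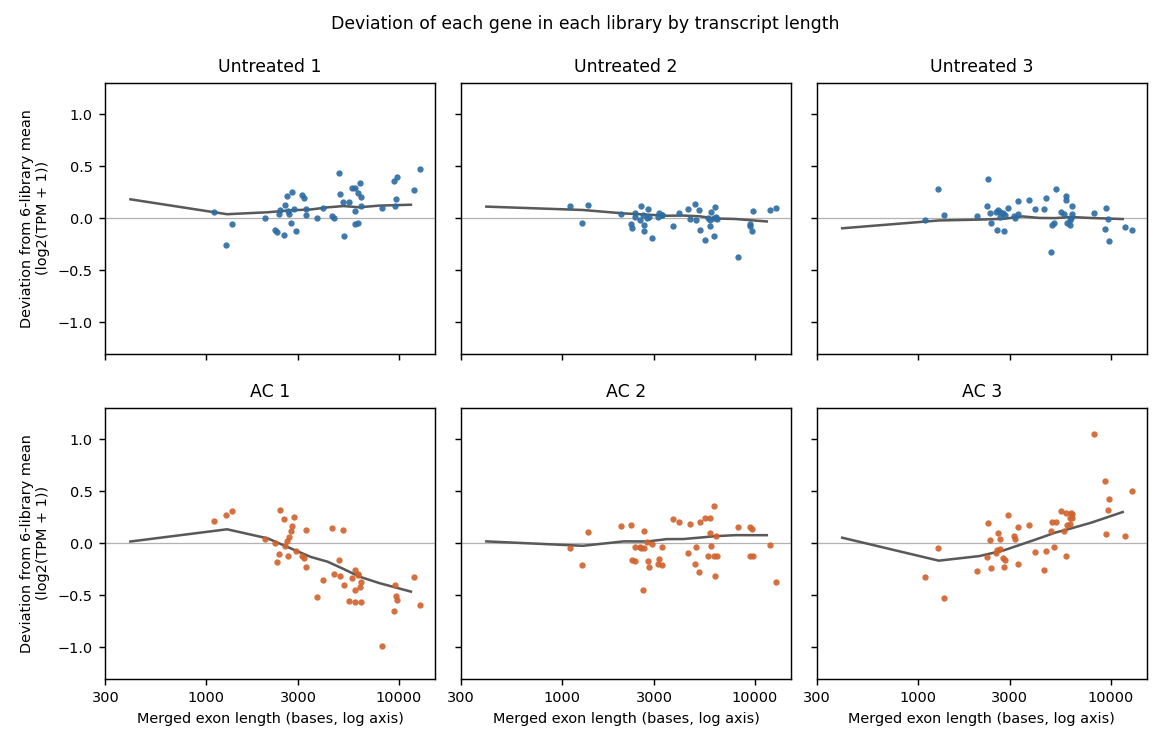
Deviation of each gene from its 6-library mean in log2(TPM + 1) against merged exon length (bases, log axis) in each library, with the 46 genes as points and the median of all genes in 10 length bins as a line. The points slope down with length in AC library 1 and up in AC library 3, as the line of all genes does.

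By role, AC library 1 was the lowest and AC library 3 the highest of the 6 for linkers, bundling genes and activators. Linkers deviated by a median of -0.56 in AC library 1 and 0.33 in AC library 3, bundling genes by -0.48 and 0.27, and activators by -0.34 and 0.12. Myosin genes were lowest in AC library 1 (-0.33) and highest in untreated library 1 (0.29), with AC library 3 at 0.20. Coronin and elongation genes were lowest in AC library 2 (-0.15 and -0.16), coronins highest in untreated library 1 (0.19) and elongation genes in AC library 3 (0.19). Capping genes were low in both AC library 1 (-0.13) and AC library 3 (-0.09). The monomer-binding genes ran the other way between these 2 libraries, at 0.29 in AC library 1 and -0.20 in AC library 3. The Arp2/3 complex stayed at 0.01 and -0.07, and actin at -0.03 and -0.01. Role and length overlap only in part in this list, as lengths also vary within a role. Activators, for example, run from 1095 bases (Brk1) to 11941 bases (Cyfip1). The contribution of each was not tested.

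**Figure D5:**
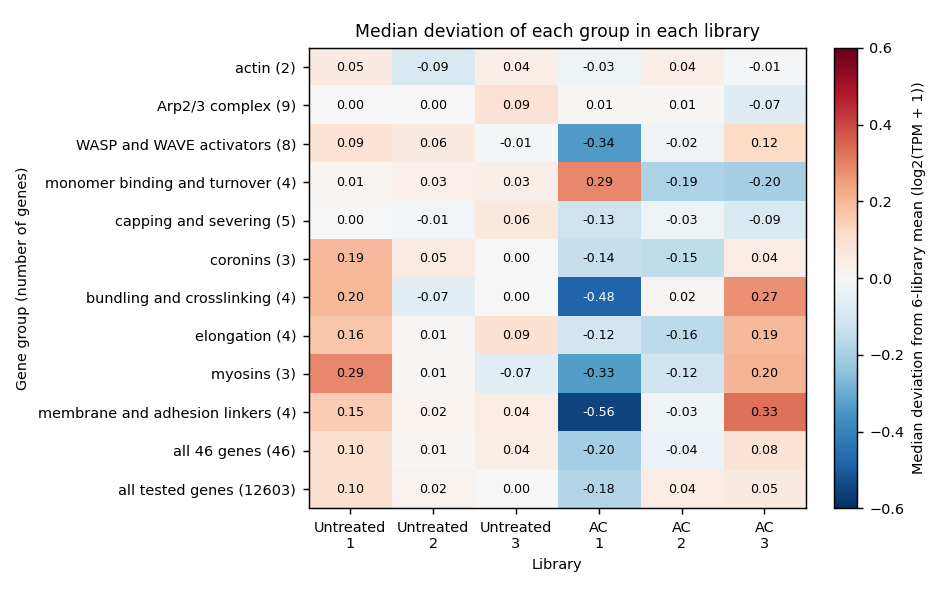
Median deviation from the 6-library mean in log2(TPM + 1) of each role (number of genes in brackets), of all 46 genes and of all genes tested, in each library. The lowest cells are linkers (-0.56) and bundling genes (-0.48) in AC library 1, and the highest is linkers in AC library 3 (0.33).

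The wider actin pathway held 128 further genes, of which 125 were in the table and 93 passed the filter. None passed the test, 1 was at an unadjusted p under 0.05, and 76 had lower and 17 higher AC means (81.7% lower), with a median of -0.07. Groups did not overlap for 4 of the 93 (4.30%), near the 4.42% of all genes. These were Rhob, Vav1, Hcls1 and Rhoh, each with a lower AC mean under both scalings and an adjusted p of 1.0 by limma. Their lack of overlap is for equal totals and was not examined under median-of-ratios scaling. Rhob was at 240.3, 201 and 172 TPM in the untreated libraries and 131, 163 and 166 TPM in the AC libraries, a difference of -0.41 ± 0.17 that ran from -0.52 to -0.28 on leaving out 1 library. Vav1, an exchange factor for Rac in blood cells, was at 397, 339.8 and 303 TPM without and 286, 256 and 299 TPM with apoptotic cells (-0.30 ± 0.15, and -0.20 without untreated library 1). AC library 3 lay only just below untreated library 3. Hcls1, the cortactin of blood cells, was at 481, 433 and 483 TPM (untreated) and 412, 311 and 432 TPM (AC), with AC library 2 lowest (-0.29 ± 0.16, and -0.14 without it). Its AC library 3 lay only just below untreated library 2 (431.9 against 432.8 TPM). Rhoh was at 9.75, 10.1 and 8.77 TPM (untreated) and 8.72, 7.92 and 8.40 TPM (AC) (-0.17 ± 0.16), with AC library 1 only just below untreated library 3.

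Of the remaining pathway genes, 32 were under the filter and 29 of them stayed below 1 TPM in every library. The muscle actins were among these, with Acta1 at most 0.102, Acta2 at most 0.507, Actc1 at most 0.0681 and Actg2 at most 0.447 TPM. The list of the MRTF and SRF axis includes the members Actb, Actg1, Flna, Myh9, Tln1 and Vcl, and shares further genes with the wider pathway. Of the genes of this axis, 17 were in the table and 11 passed the filter, 5 with higher and 6 with lower AC means, median 0.00. None of them passed the test. Srf was at 58.0, 49.9 and 37.2 TPM in the untreated libraries and 47.6, 49.6 and 55.9 TPM in the AC libraries, a difference of 0.10 ± 0.18 that was -0.08 without untreated library 3. Mrtfa was at 50.9, 45.8 and 46.9 TPM without and 35.1, 50.1 and 59.4 TPM with apoptotic cells, a difference of -0.02 ± 0.20 with AC library 1 lowest and AC library 3 highest. Among the genes with a printed CArG box, Myo1e, Actg1 and Vcl, differences thus lay in both directions and the groups overlapped for each.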

How the data were processed

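The labels' protocols describe paired-end sequencing of poly(A) RNA for 6 BMDM libraries. Tools listed in the submitters' processing notes are featureCounts 2.0.3, Subread and STAR 2.7.10a, with the build mm10. The roles of these tools, the annotation, the strand setting and the treatment of multimapping reads were not given in the sources used here. What the authors deposited is 1 table of signal values per gene, named as TPM, whose columns sum to 54732 to 92831. Multiplying each value by merged exon length (GENCODE mouse release 21) and dividing by 8.57 gave whole reads for 23473 of 23829 genes in all libraries (98.5%, tolerance 0.02 reads), and for 45 of 46 members.

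Columns were rescaled to sum to 1000000 (TPM). The fit covered genes reaching 1 TPM in 3 or more libraries and used limma 3.58.1 with trend (R 4.3.3) on log2(TPM + 1), 2-sided, adjusted by Benjamini-Hochberg over 12603 genes. Replicates of a group differed beyond sampling noise. Statistics were tested on simulated data for AC against untreated. With a simulated fold of 1.5 the call rate was 1.04%, rising to 23.2% at a fold of 2 and 77.1% at a fold of 4. Unaltered genes had a call rate of 0.0947%. Most real changes of this smaller size would therefore be missed, and the lack of passing members does not show that their levels were unchanged. Exact permutation tests of pairs enumerated every split of the libraries in R. Alternatives were other pseudocounts, filters, scalings and fits, library sets and each library left out. Members and lists were chosen with earlier results of these data known. Genes were named as the most abundant of each role, paired genes, members whose groups do not overlap, the 5 smallest p each way, and, outside the list, at most 6 each way whose groups do not overlap with at least 5 TPM, plus Srf and Mrtfa. Flna, Tln1 and Myh9, and the length limits, were chosen after their values were seen.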

Additional observations from a re-analysis of the deposited data

How the results depend on the processing

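No member passed under any alternative. Limma without trend called 1 gene, Gm22279, which is no member and rests on 4, 3 and 2 reads in the AC libraries (adjusted p = 0.0303). Members whose groups do not overlap were 2 with the length trend removed (4.80% of all genes) and 21 within the 4 libraries with placental transcripts (36.3% of all genes, 2 libraries against 2). Between the 2 other libraries, with no test, 22 members were lower, the median was 0.017 over members and 0.054 over all genes, and the summed TPM differed by -0.22 (log2; -0.05 over all libraries). Leaving out 1 library gave 29 to 42 lower members, 0 to 12 without overlap, medians of -0.16 to -0.035 over members and -0.11 to 0.0094 over all genes, a sum of -0.10 to 0.03, 0 genes passing, 106 to 797 genes at an unadjusted p under 0.05 (164 with all libraries) and 0 to 2 members there.

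Log2 differences turned sign with the length trend removed (Arpc2 0.0049, Coro1c 0.025, Arpc3 0.051, Actb 0.033, Actn1 0.063, Mrtfa 0.049), with median-of-ratios scaling (Arpc2 0.023, Coro1c 0.029, Arpc3 0.061, Actb 0.044, Pfn1 0.012, Actn1 0.060, Mrtfa 0.046) and with totals lacking abundant and small RNA genes (Coro1c 0.0053, Arpc3 0.036, Actb 0.020, Actn1 0.037, Mrtfa 0.022). They also turned with voom on recovered reads (Coro1c 0.00083, Arpc3 0.033, Actb 0.016, Actn1 0.033, Mrtfa 0.017) and within the 4 libraries with placental transcripts (Arpc2 0.080, Capzb 0.014, Arpc3 0.086, Actb 0.020, Capza2 0.030, Pfn1 0.0099, Vcl -0.28, Tmsb4x 0.17, Srf -0.14). The cause was not tested.

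On leaving out 1 library, the differences that turned sign ranged as follows: Actb -0.063 to 9.7e-05, Actg1 -0.029 to 0.095, Actn1 -0.16 to 0.27, Actr2 -0.099 to 0.20, Arpc2 -0.14 to 0.078, Arpc3 -0.070 to 0.061, Arpc4 -0.22 to 0.063, Arpc5 -0.046 to 0.10, Brk1 -0.24 to 0.029, Capg -0.023 to 0.14, Capza1 -0.21 to 0.17, Capza2 -0.24 to 0.014, Capzb -0.15 to 0.010, Cfl1 -0.23 to 0.0061, Coro1c -0.21 to 0.21, Diaph1 -0.32 to 0.0061, Flna -0.45 to 0.18, Fmnl1 -0.37 to 0.013, Lcp1 -0.21 to 0.073, Mrtfa -0.19 to 0.19, Msn -0.34 to 0.064, Myo1f -0.23 to 0.034, Pfn1 -0.23 to 0.048, Srf -0.078 to 0.24, Tln1 -0.41 to 0.072, Tmsb10 -0.12 to 0.15, Tmsb4x -0.25 to 0.17, Vcl -0.34 to 0.68, Wipf1 -0.29 to 0.14. The log2 ratios that turned ranged so: Actb to Actg1 -0.16 to 0.020, Actn4 to Actn1 -0.28 to 0.045, Arpc1b to Arpc1a -0.12 to 0.076, Capza1 to Capza2 -0.12 to 0.16, Msn to Ezr -0.11 to 0.20, Tmsb4x to Tmsb10 -0.27 to 0.13.

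Replicate numbers are shared between the groups. Deviations of same-numbered libraries correlated at -0.06, 0.0098 and 0.17, and those of differently numbered ones at -0.34 to 0.34. These values cannot tell whether the numbers pair the libraries. With the number as a replicate block, 0 genes passed, and 225 were at an unadjusted p under 0.05 (164 without the block).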
